A study of Mus musculus with 12 samples.

Results

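The 9 libraries from Tet1 mutant female primordial germ cells, averaged over 3 genotypes of equal weight, were set against the 3 wild-type libraries of the same series, which holds 12 libraries in all. Primordial germ cells are the embryonic precursors of eggs and sperm. The cells came from E14.5 mouse embryos and were sorted by an Oct4-GFP reporter, which all groups share. The mutant genotypes were Tet1HxD/HxD, described as catalytically dead (HxD, n = 3), the knockout Tet1-/- (KO, n = 3) and Tet1V/V, described as stalling at 5-hydroxymethylcytosine (V, n = 3), and the comparison group was wild type (WT, n = 3). Members were chosen by genotype label alone, so no measured value entered the choice. The comparison asks which transcripts differ between the mean of the 3 mutant genotypes and WT. A call does not require each genotype to differ from WT. Whether the replicates within a genotype are different embryos is not labelled, and p-values therefore reflect the scatter of these 12 libraries, part of which may be technical.

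TET1 oxidizes 5-methylcytosine in DNA to 5-hydroxymethylcytosine and further products, a step towards loss of methylation, and it also binds chromatin partners without using this activity. Primordial germ cells erase most of their DNA methylation during migration and in the gonad, including that of imprinting control regions. A set of germline genes with CpG-rich promoters is methylated in somatic cells and loses that methylation in germ cells. Female germ cells at this stage leave the pluripotency-like programme of mitotic germ cells and enter meiosis, in which chromosomes pair on a protein axis and recombine.

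Total counts per library ranged from 18471158 to 29495313, and the number of genes with a count ranged from 12568 in KO3 to 17614 in HxD3. CPM values are TMM-scaled, that is, each count is relative to its library's scaled total. Among 2938 genes averaging 1 to 5 CPM, here by unscaled totals, 43.7% had no count in HxD1, 45.9% in KO3 and 27.3% in KO1. The share was 24.5% in V2, and 5%, 1.8%, 2.62%, 9.94% and 2.08% in HxD2, HxD3, KO2, V1 and V3. In WT1, WT2 and WT3 it was 16.2%, 13.2% and 20.8%, so mutant libraries lay on both sides of WT. The 10 germ cell markers summed to 3527 to 4366 CPM in the mutants and 4057 to 4343 CPM in WT, and all 10 were detected in every library. Their members went both ways, with Pou5f1, Tfap2c and Dnd1 called higher and Dazl called lower, and 9 of the 10 had an unadjusted p under 0.05 with edgeR. Of the 11 tested supporting cell markers, 5 stroma, 5 endothelium, 7 blood and 6 mesonephros or epithelium markers, 0 were called by edgeR. With edgeR 3 had an unadjusted p under 0.05. DESeq2 called 2, Csf1r and Pax2, and limma-voom 1, Pax2, each lower in the mutants. In the order given, 8, 3, 4, 7 and 5 markers had a log2 fold change, mutant over WT, below 0. The medians were -1.49, -0.46, -0.33, -2.16 and -0.69, against -0.03 over all genes tested. Among WT libraries Csf1r had a count only in WT1, at 8.59 CPM. Supporting cell markers summed to 10.99 to 67.7 CPM in the mutants and 29.8 to 65.2 CPM in WT, stroma markers to 3.13 to 19.9 and 4.31 to 9.89 CPM, and blood markers to 0.996 to 36.3 and 5.17 to 48.6 CPM. Endothelium markers summed to 145.6 to 256.9 CPM in the mutants and 108.4 to 226.2 CPM in WT, and mesonephros or epithelium markers to 208.5 to 321.1 and 235.9 to 291.4 CPM. The endothelium sum was mostly Pecam1 (means 195.1 CPM in the mutants, 169.7 in WT), and no other endothelium marker passed 7.15 CPM. The epithelium sum was mostly Epcam (223.0 and 195.2 CPM) and Krt18 (32.2 and 45.4 CPM). These 2 sums therefore follow few genes and do not measure the content of such cells. Y-linked genes summed to at most 2.73 CPM in the mutants, in KO3, and to 11.03 CPM in WT3. In bulk libraries, fewer cells of a type and less RNA per cell cannot be told apart.

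In mutant germ cells, the called genes of meiosis were lower than in WT, those of the wider germline lists were lower with few exceptions, and those of pluripotency were higher. Of 16166 genes tested with edgeR's quasi-likelihood test (Benjamini-Hochberg adjusted p under 0.05), 198 differed between the average mutant and WT, 1.22% of those tested. Of these, 95 were higher in the mutants (0.588%) and 103 were lower (0.637%). Over the same 16166 genes DESeq2 called 454 and limma-voom 346. How many of all genes had an unadjusted p under 0.05 for the average was not counted. Counts of list members and markers at that level therefore stand without a background. The median log2 fold change, mutant over WT, was 0.89 among the genes called higher and -1.18 among those called lower, against -0.03 over all genes tested. Every one of the 9 mutant libraries was above every WT library in 289 genes (1.79%) and below every WT library in 331 genes (2.05%). Of the called genes, 66 of those higher (0.408% of the genes tested) and 65 of those lower (0.402%) had such separate groups.

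**Figure D1:**
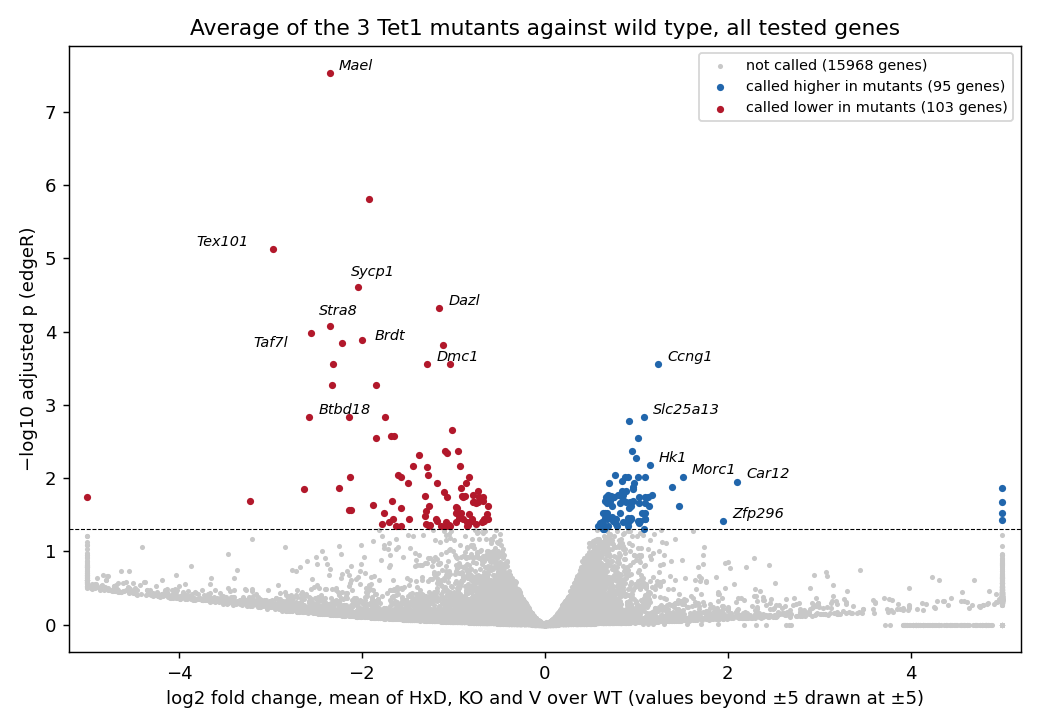
Log2 fold change of the average mutant over WT (x axis, values beyond the ends drawn at the ends) against -log10 of the edgeR adjusted p (y axis) for the 16166 genes tested, with the 95 genes called higher and the 103 called lower in colour and the threshold as a dashed line. Mael, at -2.35, has the smallest adjusted p.

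The number of calls turned on which libraries stood in the WT group. Leaving out WT1 gave 47 calls, leaving out WT2 gave 59 and leaving out WT3 gave 398, while leaving out any single mutant library gave between 170 (without V1) and 303 (without KO3). WT1 had the highest summed level of the meiotic list at 7483 CPM, against 5071 CPM in WT2 and 4428 CPM in WT3, and the lowest summed level of the pluripotency list at 3719 CPM, against 4371 and 5548 CPM. WT1 was also the highest WT library in blood markers, at 48.6 CPM against 6.51 and 5.17 CPM, and in supporting cell markers, at 65.2 CPM against 29.8 and 36.4 CPM. WT3, with the lowest meiotic and highest pluripotency sum in WT, was the library with Y-linked counts, 11.03 CPM in a group labelled female. The part of these markers in the results was not tested. In 0 of the 198 genes did the sign change in the fits made. With KO taken out of the average 50 genes were called. A fit without HxD1, KO1 and KO3, the mutant libraries with the most genes at 0, left KO2 alone in its group, so its number of calls is not given.

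**Figure D2:**
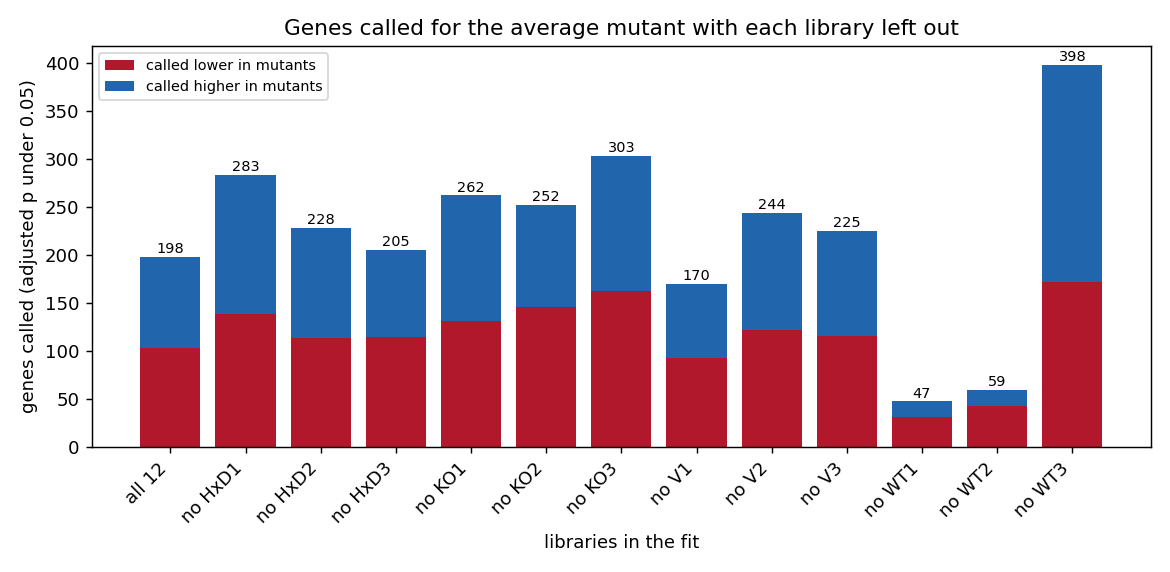
Number of genes called higher and lower in the average mutant when each library in turn is left out, beside the fit of all 12 libraries. The bar is 47 high with WT1 left out, 59 with WT2 left out and 398 with WT3 left out, and 170 to 303 for single mutant libraries.

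Among genes of meiotic entry and prophase, all calls were towards lower levels in the mutants. Of 55 tested members of the list, 16 were called lower and 0 higher, so that 29.1% were called, and the list's median log2 fold change was -1.17. The allele medians were -1.11 in HxD, -1.39 in KO and -1.07 in V, each against the same WT libraries. Summed over the list, the 9 mutant libraries had 2458 to 3560 CPM and the WT libraries 4428 to 7483 CPM, with no overlap. Between 10 and 21 members were called lower when single libraries were left out, and 12 with KO out of the average.

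Stra8, which is required for meiotic initiation, was at 168.8, 174.8 and 74.6 CPM in HxD, at 73.9, 32.2 and 114.5 CPM in KO and at 45.8, 177.2 and 145.2 CPM in V, against 977.1, 423.0 and 247.1 CPM in WT. Its levels did not overlap between mutants and WT, and WT1 was well above the other WT libraries. The log2 fold change was -2.35 ± 0.31 (SE; edgeR adjusted p = 8.46e-05). Gm4969, the older symbol of Meiosin, whose protein acts with STRA8, was at 4.75 to 27.2 CPM over the mutants, with a median of 14.2 CPM, and at 91.5, 84.3 and 47.0 CPM in WT (edgeR log2 fold change -2.22 ± 0.31, adjusted p = 0.000141). Both genes stayed called whichever library was left out.

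The synaptonemal complex is the protein structure that joins paired chromosomes. Sycp1, which encodes its transverse filament, was at 90.6, 57.3 and 75.4 CPM in HxD, at 87.1, 33.3 and 46.3 CPM in KO and at 38.5, 28.4 and 83.5 CPM in V, against 370.2, 191.8 and 166.7 CPM in WT (log2 fold change -2.04 ± 0.25, edgeR adjusted p = 2.46e-05). The mutants did not overlap WT. Sycp2, an axis component, was at 3.59 to 31.0 CPM in the mutants (median 10.7) and at 86.3, 42.1 and 50.4 CPM in WT, with an edgeR log2 fold change of -2.32 ± 0.36 (adjusted p = 0.000532). Sycp3, its axis partner, was at 9.81 to 45.7 CPM in the mutants (median 20.7) and at 182.7, 58.0 and 40.6 CPM in WT, and here the groups overlapped. Its log2 fold change of -1.84 ± 0.32 (edgeR adjusted p = 0.00280) became -0.91 without WT1, where it was no longer called (adjusted p = 0.326).

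Further members chosen after their values were seen were Dmc1, the meiotic strand exchange protein, and Meioc, which acts in the passage to meiosis. Dmc1 was at 31.8 to 57.5 CPM in the mutants and at 80.3 to 155.8 CPM in WT (log2 fold change -1.28 ± 0.19, edgeR adjusted p = 0.000278). Meioc was at 15.5 to 87.0 CPM in the mutants and at 136.0 to 237.0 CPM in WT (log2 fold change -1.84 ± 0.28, edgeR adjusted p = 0.000532). Neither lost its call when any library was left out.

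Germline genes methylated in somatic cells, a list that shares members with the meiotic and piRNA lists, were mostly lower among the calls as well. Of 45 tested members, 17 were called lower and 1 higher (40.0% called), with a median log2 fold change of -0.79. Their summed level was 6569 to 8672 CPM in the mutants and 9200 to 12060 CPM in WT. The lowest and highest counts of members called lower on leaving out a library were 10 and 19.

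Mael, which encodes a protein of transposon silencing in germ cells, had the smallest adjusted p of the list. It was at 40.3, 35.2 and 46.6 CPM in HxD, at 17.7, 25.7 and 22.1 CPM in KO and at 30.8, 27.7 and 65.6 CPM in V, against 211.2, 153.8 and 143.5 CPM in WT. Even the highest mutant library was below the lowest WT library. The log2 fold change was -2.35 ± 0.20 (edgeR adjusted p = 3.00e-08), and by allele it was -2.06 in HxD, -2.96 in KO and -2.03 in V, each called against the shared WT libraries.

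Tex101, a germ cell surface glycoprotein gene, was at 12.02, 20.5 and 10.8 CPM in HxD, at 2.14, 5.3 and 7.22 CPM in KO and at 7.47, 26.9 and 19.5 CPM in V, against 154.8, 60.4 and 40.1 CPM in WT (log2 fold change -2.98 ± 0.34, edgeR adjusted p = 7.54e-06). The groups did not overlap. Dazl, an RNA-binding protein gene needed for germ cell development, was at 553.1 to 900.5 CPM in the mutants (median 702.8) and at 1923, 1666 and 1207 CPM in WT (log2 fold change -1.15 ± 0.15, edgeR adjusted p = 4.80e-05). Taf7l, a germ cell form of a TFIID subunit, was at 6.38 to 39.7 CPM in the mutants and at 196.3, 84.1 and 45.3 CPM in WT (log2 fold change -2.55 ± 0.34, edgeR adjusted p = 0.000103). All of these stayed called without any single library. Brdt, a testis bromodomain gene named here after its values were seen, was at 6.29 to 24.1 CPM in the mutants and at 80.3, 77.8 and 35.1 CPM in WT (log2 fold change -1.996 ± 0.27, edgeR adjusted p = 0.000129).

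The 1 member called higher was Rhox6, an X-linked homeobox gene named after its values were seen, at 314.3 to 487.0 CPM in the mutants and 236.0, 266.5 and 216.4 CPM in WT (log2 fold change 0.66 ± 0.15, edgeR adjusted p = 0.0204). It lost its call without any 1 of the 3 WT libraries (adjusted p up to 0.105) and with KO out of the average (0.0711), and near-identical copies make its count uncertain.

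**Figure D3:**
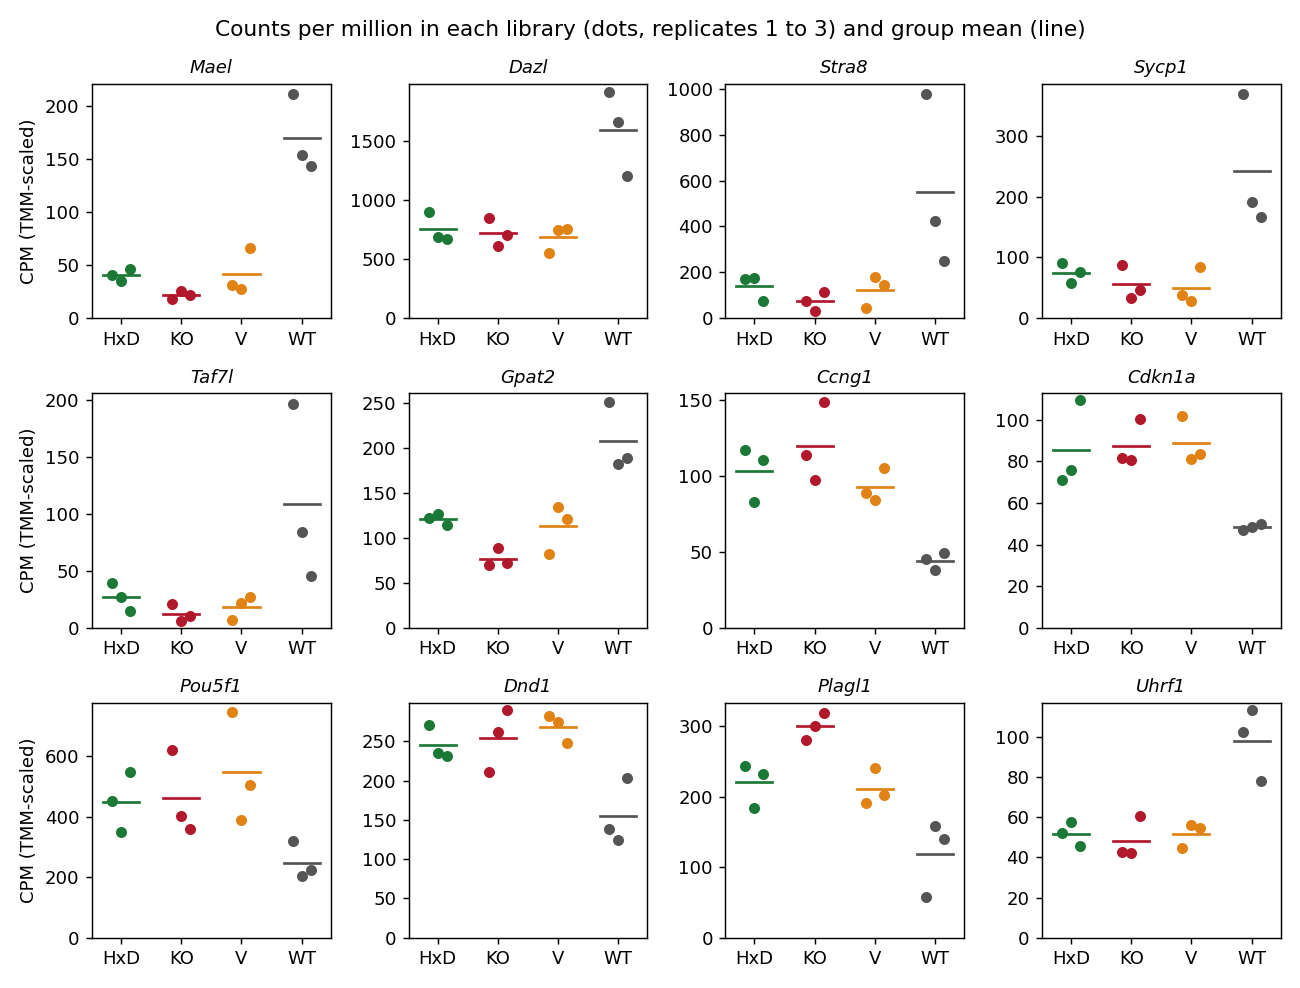
CPM (y axis, from 0) of 12 called genes in the libraries of HxD, KO, V and WT; dots are libraries and lines are group means. In Mael, Dazl, Stra8, Sycp1, Taf7l, Gpat2 and Uhrf1 all mutant libraries lie below all WT libraries, and in Ccng1, Cdkn1a, Pou5f1, Dnd1 and Plagl1 all lie above.

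The sequences upstream of the start of some of the called genes are shown because the germline list is defined by promoter methylation, in which CpG is the methylated unit. They cover the 250 bases before the start in GRCm38.p6, from a RefSeq promoter table, 5′ to 3′ on the gene's strand with each CG in capitals. Mael (chr1:166238745-166238994, minus strand, 18 CpG), Sycp1 (chr3:102936101-102936350, minus strand, 17 CpG) and Tex101 (chr7:24672051-24672300, minus strand, 14 CpG) were lower in the mutants, and Ccng1 (chr11:40755287-40755536, minus strand, 11 CpG) was higher.
Mael: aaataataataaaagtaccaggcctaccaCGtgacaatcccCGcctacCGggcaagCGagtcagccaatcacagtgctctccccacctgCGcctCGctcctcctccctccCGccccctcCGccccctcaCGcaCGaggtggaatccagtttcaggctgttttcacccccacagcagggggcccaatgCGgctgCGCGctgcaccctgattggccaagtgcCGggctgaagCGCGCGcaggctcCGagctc
Sycp1: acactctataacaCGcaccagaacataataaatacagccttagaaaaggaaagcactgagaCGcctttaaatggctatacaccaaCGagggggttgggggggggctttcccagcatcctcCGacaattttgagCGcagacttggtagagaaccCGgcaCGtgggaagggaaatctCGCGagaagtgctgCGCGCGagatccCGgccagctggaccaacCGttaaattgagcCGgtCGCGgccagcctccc
Tex101: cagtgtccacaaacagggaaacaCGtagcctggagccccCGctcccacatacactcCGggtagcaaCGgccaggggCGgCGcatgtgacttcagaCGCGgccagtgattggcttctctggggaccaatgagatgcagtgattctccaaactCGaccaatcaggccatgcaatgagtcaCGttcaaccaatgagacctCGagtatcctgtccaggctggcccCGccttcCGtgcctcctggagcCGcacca
Ccng1: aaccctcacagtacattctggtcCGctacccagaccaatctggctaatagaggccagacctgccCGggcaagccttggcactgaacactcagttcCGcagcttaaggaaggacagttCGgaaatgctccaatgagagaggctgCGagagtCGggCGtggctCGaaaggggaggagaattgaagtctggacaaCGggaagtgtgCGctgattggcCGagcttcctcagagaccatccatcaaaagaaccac

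Promoters of genes called lower did not stand far from those of all tested protein-coding genes in CpG number. Within the 250 bases the median was 16.5 CpG for genes called lower, 14 for genes called higher and 16 for the tested protein-coding genes with a promoter in the table. The motif CACGTG, searched on both strands of the 300-base window, was in 15.2% of the promoters of genes called lower (14 of 92) and in 7.89% of those called higher (6 of 76), against 10.1% of those of tested protein-coding genes (1113 of 11045). Within the germline list it was in 66.7% of the promoters of members called lower (10 of 15), and in 39.5% of those of all tested members (15 of 38). Among genes called lower that are not in the list, 5.19% held it (4 of 77). TCCCGC, searched likewise, was in 40.2% of the promoters of genes called lower, 26.3% of those called higher and 36.2% of those of tested protein-coding genes. These matches describe letters in a window and say nothing on binding, and no methylation was measured here.

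Genes of the piRNA pathway and transposon silencing were mostly among those called lower. piRNAs are small RNAs that guide the silencing of transposons in germ cells. Of 26 tested members, 7 were called lower and 1 higher (30.8%), with a median log2 fold change of -0.55. Summed CPM was 1935 to 3034 in the mutants and 3321 to 3808 in WT. Members called lower numbered 4 to 8 when single libraries were left out, and 4 with KO out of the average.

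Gpat2, a mitochondrial acyltransferase gene with a part in piRNA production, was at 70.1 to 134.3 CPM in the mutants (median 114.8) and at 251.8, 182.6 and 188.8 CPM in WT (log2 fold change -1.03 ± 0.15, edgeR adjusted p = 0.000278). Btbd18, which promotes transcription of piRNA precursors in mouse spermatocytes, was at 0.57 to 21.8 CPM in the mutants and at 72.1, 44.8 and 50.9 CPM in WT (log2 fold change -2.57 ± 0.43, edgeR adjusted p = 0.00148). Tdrd1, a tudor scaffold protein of the pathway, was at 9.29 to 39.8 CPM in the mutants and at 62.2, 61.6 and 47.4 CPM in WT. Its log2 fold change was -1.45 ± 0.28 (edgeR adjusted p = 0.00681), and with KO out of the average it was not called (adjusted p = 0.113). For all of these genes every mutant library was below every WT library.

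Morc1, needed for transposon silencing in the male germline, was the 1 member called higher and was named after its values were seen. It was at 18.4 to 70.6 CPM in the mutants (median 53.4) and at 11.6, 16.1 and 24.7 CPM in WT (log2 fold change 1.51 ± 0.30, edgeR adjusted p = 0.00976), with HxD1 inside the WT range. Without WT1 or without WT2 it was not called (adjusted p up to 0.0622), nor with KO out of the average (0.0589).

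Genes of pluripotency and the early germline had the opposite direction. Of 39 tested members 10 were called higher and 0 lower (25.6%), with a median log2 fold change of 0.56; by allele it was 0.50 in HxD, 0.63 in KO and 0.56 in V. The list summed to 5726 to 7734 CPM in the mutants and 3719 to 5548 CPM in WT, without overlap. This count turned on the WT group: leaving out WT1 left 1 member called higher, leaving out WT2 left 0 and leaving out WT3 gave 16, while 1 was called with KO out of the average.

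Pou5f1, which encodes OCT4, the factor behind the sorting reporter, was at 450.4, 349.8 and 548.3 CPM in HxD, at 621.3, 401.1 and 357.4 CPM in KO and at 747.1, 387.5 and 503.7 CPM in V, against 317.8, 203.6 and 222.5 CPM in WT. All mutant libraries were above all WT libraries. Its log2 fold change of 0.96 ± 0.20 (edgeR adjusted p = 0.0134) missed the threshold without WT2 (adjusted p = 0.107). Esrrb, a nuclear receptor of the pluripotency network, was at 201.8 to 321.5 CPM in the mutants (median 237.2) and at 59.0, 103.8 and 196.0 CPM in WT (log2 fold change 1.03 ± 0.23, edgeR adjusted p = 0.0181). WT3 lay close to the lowest mutant library.

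Dnd1, an RNA-binding protein gene of germ cell survival, was at 211.4 to 290.2 CPM in the mutants and at 138.4, 124.1 and 204.0 CPM in WT (log2 fold change 0.72 ± 0.16, edgeR adjusted p = 0.0187). Tfap2c, a transcription factor of germ cell specification, was at 183.7 to 343.2 CPM in the mutants and at 71.8, 146.5 and 215.0 CPM in WT (log2 fold change 0.93 ± 0.21, edgeR adjusted p = 0.0212), and here the groups overlapped. Ifitm3, an early germ cell marker, was at 80.7 to 197.7 CPM in the mutants and at 57.8, 85.2 and 78.9 CPM in WT (log2 fold change 0.96 ± 0.22, edgeR adjusted p = 0.0207), also with overlapping groups. Of genes named after their values were seen, Nanog differed by 0.89 ± 0.20 on the log2 scale (edgeR adjusted p = 0.0212) and Sox2 by 0.73 ± 0.17 (edgeR adjusted p = 0.0236), both core transcription factors of pluripotency. Esrrb, Dnd1, Tfap2c, Ifitm3, Nanog and Sox2 each lost their call without WT1 and without WT2, with adjusted p up to 0.242 for Sox2, and with KO out of the average. Dppa3, an early germ cell gene, was at 368.4 to 625.1 CPM in the mutants and 318.6 to 431.4 CPM in WT and was not called.

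**Figure D4:**
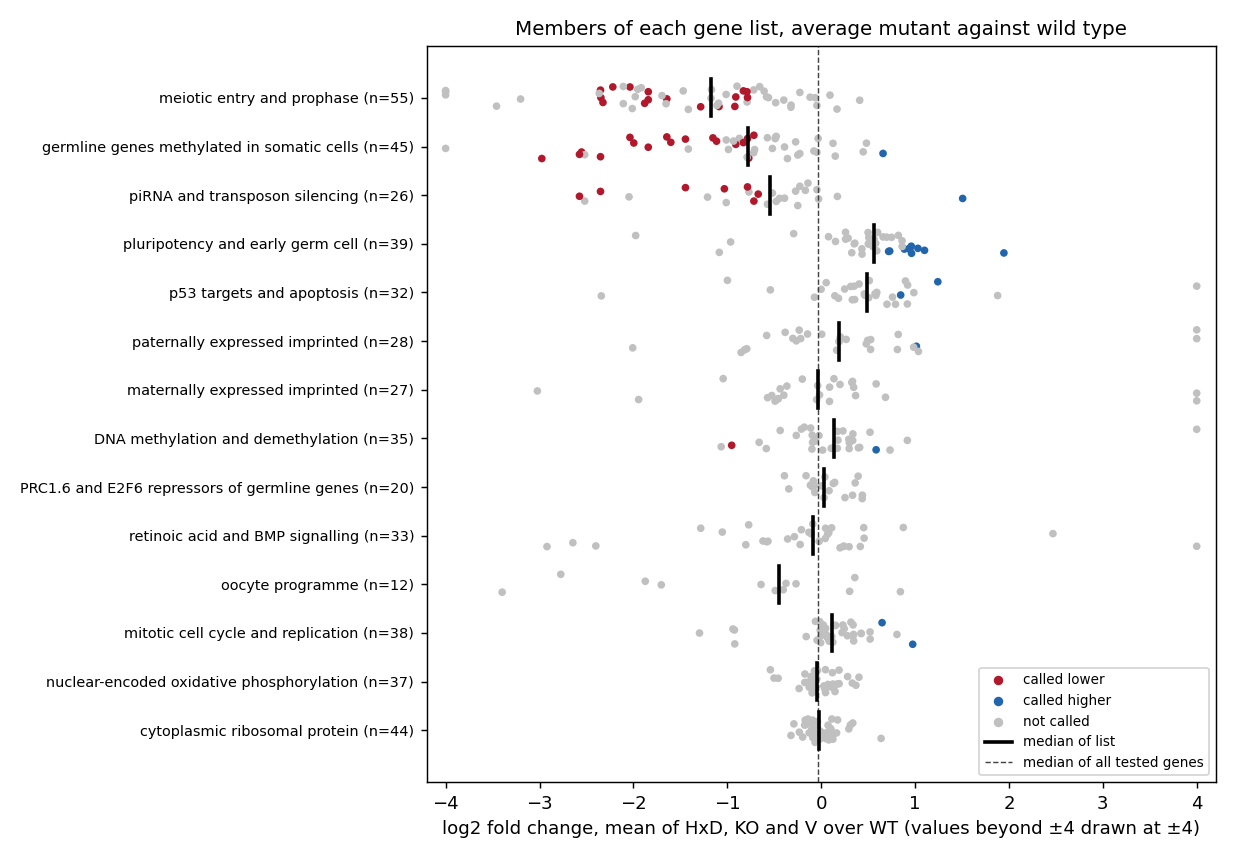
Log2 fold change of the average mutant over WT for the tested members of each gene list, with called members in colour and the list median as a bar. The medians are -1.17 for the meiotic list, -0.79 for the germline list and 0.56 for the pluripotency list, against -0.03 for all genes.

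The p53 target list was higher in summed level in every mutant library, and its called members were higher. p53 is a transcription factor that responds to DNA damage and other stress. Of 32 tested members 2 were called higher and 0 lower, or 6.25% against 1.22% of all genes tested. With edgeR 15 had an unadjusted p under 0.05, a level not counted over all genes. DESeq2 and limma-voom called 3 each, against 454 and 346 of all 16166 genes. The median log2 fold change was 0.49, and the list summed to 1785 to 2188 CPM in the mutants and 1348 to 1447 CPM in WT. Ccng1, which encodes cyclin G1, was at 116.7, 82.7 and 110.3 CPM in HxD, at 113.8, 97.3 and 148.6 CPM in KO and at 88.4, 83.9 and 105.2 CPM in V, against 45.4, 38.2 and 49.0 CPM in WT. The groups were well apart, with an edgeR log2 fold change of 1.24 ± 0.18 (adjusted p = 0.000278) that stayed called without any single library. Cdkn1a, the gene of the cell cycle inhibitor p21, was at 70.9 to 109.5 CPM in the mutants and 47.0, 48.5 and 49.99 CPM in WT (log2 fold change 0.85 ± 0.18, edgeR adjusted p = 0.0151), and its call was lost without WT1 or WT2 (adjusted p up to 0.0820). Between 1 and 5 members were called higher when single libraries were left out.

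Among imprinted genes, which are expressed from 1 parental copy, the share called was near that of all genes tested. Of 28 tested paternally expressed genes 1 was called (3.57%), and of 27 maternally expressed genes 0 were (0%), against 1.22% of all genes, with median log2 fold changes of 0.19 and -0.04. With edgeR 5 of the paternally and 6 of the maternally expressed genes had an unadjusted p under 0.05. The number of all genes at that level was not counted. DESeq2 called 1 and 3 of the imprinted genes, and limma-voom 1 of each, against 454 and 346 of all 16166 genes. The 1 call was Plagl1, a zinc finger gene, at 184.4 to 319.1 CPM in the mutants and at 58.3, 158.7 and 140.5 CPM in WT (log2 fold change 1.01 ± 0.20, edgeR adjusted p = 0.00976); it was lost without WT1 (adjusted p = 0.0637) and with KO out of the average (adjusted p = 0.0690). Phlda2, maternally expressed, was at 227.4 to 568.3 CPM in the mutants and at 173.2 to 272.6 CPM in WT and was not called (log2 fold change 0.69 ± 0.18, edgeR adjusted p = 0.0522). It was called with DESeq2 (adjusted p = 0.0161), limma-voom (0.0322) and no filter on low counts (0.00296), and in 8 of the 12 fits without a library. Peg3, H19 and Dlk1 were not called either, with log2 fold changes of 0.19, 0.20 and -0.58 (edgeR adjusted p = 0.777, 0.727 and 0.807).

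Among genes of DNA methylation and demethylation, 1 of 35 tested was called lower and 1 higher (5.71%). Uhrf1, which brings the maintenance methyltransferase to newly copied DNA, was at 42.2 to 60.4 CPM in the mutants and at 102.7, 113.3 and 78.2 CPM in WT (log2 fold change -0.95 ± 0.17, edgeR adjusted p = 0.00430), and it just missed the threshold without WT2 (adjusted p = 0.0587). Ung, a uracil DNA glycosylase gene, was at 297.5 to 441.5 CPM in the mutants and at 195.4 to 274.9 CPM in WT (log2 fold change 0.59 ± 0.15, edgeR adjusted p = 0.0444), a call lost without HxD2, V1, WT1 or WT2 (adjusted p up to 0.317) with KO or with V out of the average and with DESeq2 size factors (adjusted p up to 0.124 among these). Tet1 was at 80.8 to 285.8 CPM in the mutants and 91.4 to 215.1 CPM in WT, with 80.8 to 158.3 CPM in KO. Its log2 fold change of 0.18 ± 0.20 was not called (edgeR adjusted p = 0.772), and because the deleted part of the gene is not given, this whole-gene count does not check the KO label. Tet2 differed by 0.34 ± 0.31 and Tet3 by -1.07 ± 0.48 on the log2 scale, and neither was called (edgeR adjusted p = 0.703 and 0.337).

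Of 38 tested mitotic and replication genes 2 were called higher (5.26%, against 0.588% of all genes called higher), 12 had an unadjusted p under 0.05 with edgeR, and DESeq2 called 2 and limma-voom 3. The calls were Ccnd3 and Cdk4, which encode a D-type cyclin and its kinase partner (log2 fold changes 0.97 ± 0.20 and 0.65 ± 0.17, edgeR adjusted p = 0.0118 and 0.0493). Ccnd3 was lost without WT1 (adjusted p = 0.112), and Cdk4 without V1, V2, WT1 or WT2 (adjusted p up to 0.341); both were lost with KO out of the average, and Cdk4 also with V out, with DESeq2 size factors and with a minimum of 5 CPM (adjusted p up to 0.156 among these). None of 20 tested PRC1.6 repressor genes, 33 retinoic acid and BMP signalling genes, 12 oocyte genes, 37 nuclear-encoded oxidative phosphorylation genes or 44 cytoplasmic ribosomal protein genes was called by edgeR, where 1.22% of all genes were, with medians of 0.03, -0.09, -0.45, -0.04 and -0.03. In that order, 4, 8, 3, 7 and 2 members had an unadjusted p under 0.05, DESeq2 called 0, 1, 1, 0 and 0 and limma-voom 0, 2, 2, 0 and 0. Of all 16166 genes DESeq2 called 454 and limma-voom 346, and the number at an unadjusted p under 0.05 was not counted. Ddx4, a germ cell RNA helicase gene, was at 321.7 to 614.2 CPM in the mutants and at 610.2 to 714.0 CPM in WT, and its log2 fold change of -0.57 ± 0.16 was not called (edgeR adjusted p = 0.0704). Ddx4 was called with DESeq2 (adjusted p = 0.0144), limma-voom (0.0261), no filter on low counts (0.00838) and the replicate block (0.04998), and in 3 of the 12 fits without a library.

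The genes with the largest changes and separate groups by the naming rule included, beside list members, genes of metabolism, cell cycle control and antigen presentation. Car12, a carbonic anhydrase gene, was at 10.2, 23.0 and 19.7 CPM in HxD, at 16.6, 30.6 and 33.5 CPM in KO and at 29.5, 17.9 and 21.2 CPM in V, against 2.10, 5.25 and 8.09 CPM in WT (log2 fold change 2.10 ± 0.43, edgeR adjusted p = 0.0113). It lost its call without WT1 or WT2 (adjusted p up to 0.0915) and with limma-voom (adjusted p = 0.0869). Zfp296, a zinc finger gene expressed in pluripotent cells, was at 7.75 to 24.3 CPM in the mutants and at 2.27, 6.24 and 3.70 CPM in WT (log2 fold change 1.95 ± 0.48, edgeR adjusted p = 0.0387), a call lost without any 1 of HxD2, HxD3, V1, V3, WT1, WT2 and WT3 (adjusted p up to 0.237) and with limma-voom (adjusted p = 0.154). Hk1, the first enzyme of glycolysis, was at 87.4 to 164.3 CPM in the mutants and 35.7, 41.3 and 74.3 CPM in WT (log2 fold change 1.15 ± 0.22, edgeR adjusted p = 0.00670), lost without WT2 (adjusted p = 0.0571). Skp2, an F-box protein gene of cell cycle control, and Gstm3, a glutathione transferase gene, had log2 fold changes of 1.17 ± 0.25 and 1.14 ± 0.26 (edgeR adjusted p = 0.0170 and 0.0236), both lost without WT1 or WT2 (adjusted p up to 0.124 and 0.203). Rgcc, a regulator of the cell cycle, Elf3, an ETS transcription factor, Fam222a and Fam160b1 had log2 fold changes of 1.46, 1.10, 1.40 and 1.13. Rgcc was lost without WT2 or WT3 (adjusted p up to 0.0685), Elf3 without WT1 or WT2 (up to 0.181), Fam222a and Fam160b1 without WT1 (0.124 and 0.157), and Rgcc and Elf3 with limma-voom (0.0764 and 0.0660). Zfp296, Rgcc, Skp2, Gstm3, Fam222a, Fam160b1 and Elf3 were not called with KO out of the average (adjusted p from 0.0503 to 0.127).

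H2-K1 and H2-D1 encode MHC class I molecules, whose genes resemble one another so that reads may be split uncertainly. H2-K1 was at 18.5, 19.13 and 11.7 CPM in HxD, at 8.01, 3.98 and 14.4 CPM in KO and at 4.61, 17.4 and 12.4 CPM in V, against 87.1, 41.7 and 28.3 CPM in WT (log2 fold change -2.14 ± 0.36, edgeR adjusted p = 0.00148). H2-D1 was at 1.86 to 10.2 CPM in the mutants and at 46.0, 21.8 and 10.6 CPM in WT (log2 fold change -2.25 ± 0.47, edgeR adjusted p = 0.0136). The mutants lay below WT in both genes, though V2 was close to WT3 for H2-D1. H2-K1 lost its call without WT1 (adjusted p = 0.104), and H2-D1 without WT1 or WT2 (adjusted p up to 0.469) and with KO out of the average (adjusted p = 0.0711). Dmrta2, a DMRT transcription factor gene, was at 0 to 11.9 CPM in the mutants and at 41.8, 24.5 and 34.4 CPM in WT (log2 fold change -2.64 ± 0.55, edgeR adjusted p = 0.0143), lost without WT1 (adjusted p = 0.0820) and with KO out of the average (adjusted p = 0.177). Lypd4 was listed at 0 in 7 of the 9 mutant libraries, with 0.41 CPM in HxD3 and 0.18 CPM in V3, against 12.9, 4.13 and 3.11 CPM in WT. Its call (edgeR adjusted p = 0.0182) was lost without WT1 or WT2 (adjusted p up to 0.278) and with KO or V out of the average (0.174 and 0.0519). Lypd4 passed the filter on low counts through the WT libraries, where it is high, so this p is not separate support for a difference. Gm7972, a predicted gene named after its values were seen, was at 19.11 to 57.8 CPM in the mutants and at 185.7, 123.5 and 117.2 CPM in WT (log2 fold change -1.92 ± 0.20, edgeR adjusted p = 1.53e-06), and it stayed called without any single library; its groups did not overlap.

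Averaging over 9 mutant libraries gave a smaller error than a single genotype, with a median standard error of 0.37 for the average and of 0.46, 0.45 and 0.46 for HxD, KO and V against WT. By the naming rule, genes called for the average and for no single genotype included Bnc2, Gaa, Tgfbr1 and Spcs3. Bnc2, a zinc finger gene, was at 1.93 to 9.25 CPM in the mutants and at 32.2, 20.6 and 22.6 CPM in WT (log2 fold change -2.13 ± 0.42, edgeR adjusted p = 0.00957). Its values by genotype were -1.90, -1.80 and -2.69 in HxD, KO and V. Gaa, the lysosomal acid glucosidase gene, was at 35.6 to 54.6 CPM in the mutants and at 88.3, 84.6 and 77.7 CPM in WT (log2 fold change -0.86 ± 0.18, edgeR adjusted p = 0.0117). Tgfbr1, a TGF-beta receptor, was at 54.1 to 94.3 CPM in the mutants and at 139.2, 133.7 and 119.4 CPM in WT (log2 fold change -0.73 ± 0.15, edgeR adjusted p = 0.0150). Spcs3, a signal peptidase subunit, was at 87.2 to 123.6 CPM in the mutants and at 194.3, 159.9 and 139.2 CPM in WT (log2 fold change -0.68 ± 0.15, edgeR adjusted p = 0.0181). In all of them the groups did not overlap. All 4 lost their calls without WT1 (adjusted p up to 0.218 for Spcs3), Gaa, Tgfbr1 and Spcs3 also without WT2. Bnc2 and Tgfbr1 were lost with V out of the average (adjusted p = 0.0519 and 0.0554) and Spcs3 with KO out (adjusted p = 0.0589). Smc1b, a meiotic cohesin subunit, and Hormad1, an axis protein, were in the same class with log2 fold changes of -0.83 and -0.91, and both were lost without WT1 (adjusted p = 0.173 and 0.455), Hormad1 also with KO out of the average (0.0645).

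The average describes all 3 alleles only as far as they do not differ, and a test among the 3 mutant genotypes was made in the same fit. It called 0 genes with edgeR (0%), while 465 genes (2.88%) had an unadjusted p under 0.05. DESeq2 called 1 gene, Galnt11, and limma-voom 0. With no filter on low counts 15 genes were called, among them Tet1, Stra8, Tex101, Slc25a31, Tsc22d3, Malsu1, Galnt11 and Dhrs7. The fit without HxD1, KO1 and KO3 left KO2 alone in its group. KO2 alone cannot show the spread within KO, which this fit takes from the other groups, so its calls are not given. A p that misses the threshold does not show that the alleles act alike. In the genes called lower the median log2 fold change was -1.02 in HxD, -1.43 in KO and -1.10 in V, and in those called higher it was 0.77 in HxD, 1.01 in KO and 0.85 in V. All these comparisons share the same WT libraries.

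**Figure D5:**
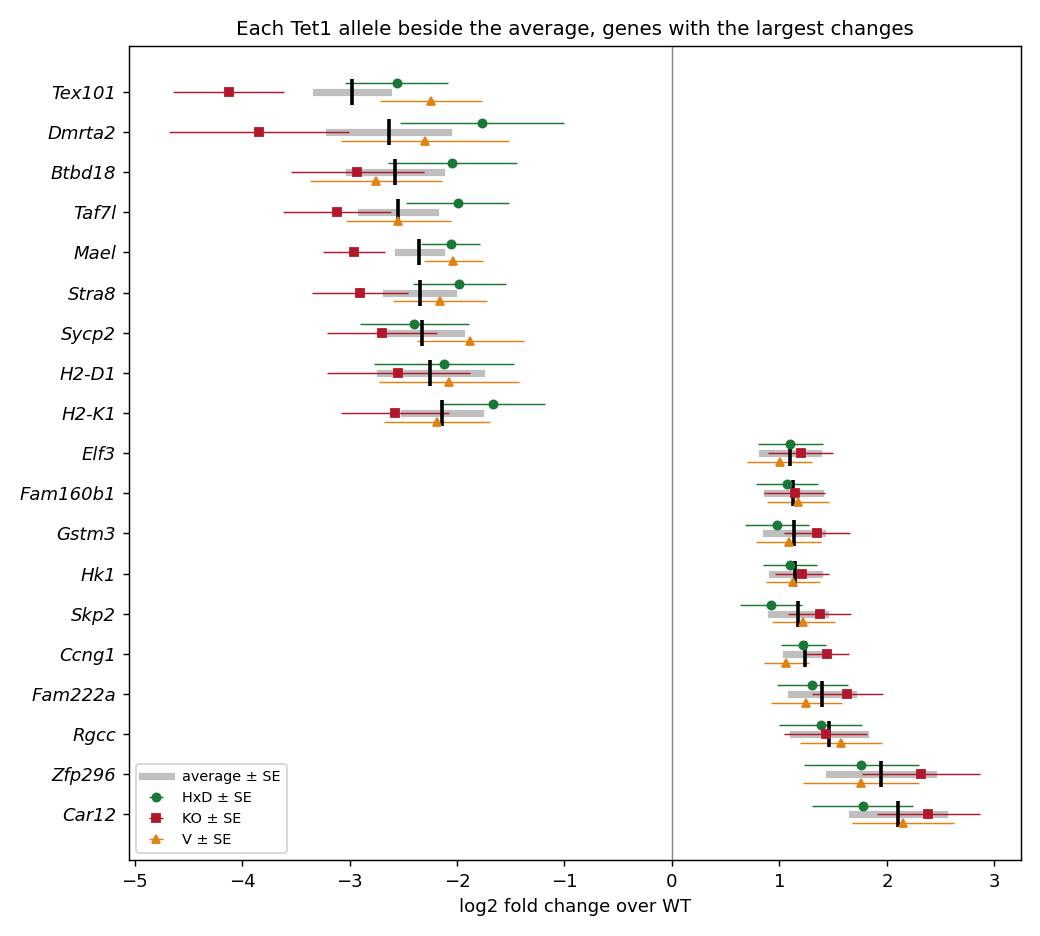
Log2 fold change over WT (x axis) in HxD, KO and V with standard errors, beside the average (black mark, grey bar for its standard error), for the genes with the largest changes, Lypd4 left out; the 3 comparisons share the WT libraries. In Tex101 the values are -2.56 in HxD, -4.12 in KO and -2.24 in V, and in Ccng1 they are 1.22, 1.44 and 1.06.

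The smallest adjusted p for a difference among mutants belonged to Galnt11, a glycosyltransferase gene, at 73.0, 108.7 and 103.0 CPM in HxD, at 31.7, 40.3 and 37.5 CPM in KO and at 50.2, 39.8 and 43.6 CPM in V, against 42.1, 61.8 and 68.8 CPM in WT. HxD was above all other libraries, and the test among mutants gave an edgeR adjusted p of 0.0608. Dhrs7, a short-chain dehydrogenase gene, was at 22.6, 54.9 and 23.0 CPM in HxD, at 0, 1.57 and 4.45 CPM in KO and at 32.0, 58.9 and 32.3 CPM in V, against 5.94, 21.3 and 17.6 CPM in WT (adjusted p among mutants 0.105, edgeR). KO was below the other groups. Galnt11 was called among the mutants in 8 and Dhrs7 in 10 of the 12 fits without a library. Tsc22d3, a glucocorticoid-induced gene, was called for the average, at 4.43 to 41.9 CPM in the mutants and at 91.9, 56.5 and 27.7 CPM in WT (log2 fold change -2.31 ± 0.34, edgeR adjusted p = 0.000278), and its values by genotype were -1.36 in HxD, -3.31 in KO and -2.27 in V.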

How the data were processed

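RNA sequencing libraries, 12 in all, were made from sorted female primordial germ cells. Per the labels' protocols, each started from total RNA of 5000 cells, with mRNA selected by oligo d(T). The table the authors deposited holds raw counts, whole and unscaled, for 35976 gene symbols. The submitters' processing notes name featureCounts 2.0.3, SAMtools 1.9, STAR 2.7.10b, Trim Galore 0.6.7 and FastQC, and the builds GRCm39 and mm10 with no roles. For the annotation, the strand setting and multimapping reads, the settings were not given in the sources used here, and genes with near-identical copies, overlapping genes and antisense partners are therefore uncertain.

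Counts were tested with edgeR 4.0.16 (R 4.3.3; quasi-likelihood F test, two-sided, TMM, default filterByExpr). The contrast was the mean of HxD, KO and V minus WT, from a single fit of 12 libraries on group. P-values were adjusted by Benjamini-Hochberg over 16166 genes, with calls at 0.05. A standard error is the log2 fold change over the root of its F value. A test with 2 degrees of freedom compared the mutants. CPM values use TMM-scaled totals, except in the band of 1 to 5 CPM and the alternative filter at a minimum of 5 CPM, which use unscaled totals. DESeq2 1.42.0, limma-voom (limma 3.58.1), other filters and scaling, a replicate block, a 2-group fit, averages without a genotype and left-out libraries were alternatives. Libraries of a group differed by more than sampling noise (chi-square per degree of freedom at least 29.9). Without molecular identifiers, counts are not independent molecules.

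Genes named were Tet1 to Tet3, the 10 largest separate changes each way averaging at least 5 CPM, up to 4 called members of each list by adjusted p (or 2 members where none was called), 8 genes called for the average and for no single genotype, 6 by the test among mutants, and 10 reference genes. Others are said to be named after their values were seen. The comparison, the lists and the rule were chosen with earlier results of these data known. Symbols were matched to the promoter table of GRCm38.p6 by name or synonym; 11045 of 13635 tested protein-coding genes matched (81.0%).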

Additional observations from a re-analysis of the deposited data

Results flagged for a closer look

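For a mutant library apart from the rest, 81 quantities were looked at. For normally distributed values of a single group of 9, chance alone sets about 1 in 20 apart. These 9 libraries span 3 genotypes, and some of the genes are near 0 CPM, so that rate need not hold. A second rule looked for alleles on opposite sides of WT, and that rate does not apply to it. Both rules together gave 12 flags. In the following genes the highest of the 9 mutant libraries was separated from the rest by more than Dixon's critical value of 0.493. Tet2 was at 100.8 CPM in HxD3, Hk1 at 164.3 CPM in KO2 and Lypd4 at 0.4104 CPM in HxD3. V2 was high in Sycp2, at 31.02 CPM, and in Malsu1, a mitochondrial ribosome assembly gene, at 94.08 CPM. Tsc22d3 was at 41.87 CPM in HxD1. V1 was high in 3 markers of other cell types at low levels, with the supporting cell marker Foxl2 at 3.313 CPM, the stroma marker Col3a1 at 13.98 CPM and the macrophage marker Adgre1 at 1.853 CPM; leaving out V1 gave 170 calls in place of 198, and the part of these cells in the results was not tested.

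In 2 genes the alleles moved in opposite directions in every library. Both had been named for a small p among the mutants, so these flags follow in part from that choice. All HxD libraries were above and all KO libraries below WT in Galnt11, with an edgeR adjusted p of 0.0608 among the mutants. In Dhrs7 all HxD libraries, and all V libraries, were above WT and all KO libraries below it (adjusted p = 0.105 among the mutants, edgeR). With all 12 libraries neither passed the threshold, but Galnt11 was called among the mutants with DESeq2 and with DESeq2 size factors, and in 8 of the 12 fits without a library, and Dhrs7 in 10 of them.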

How the results depend on the processing

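The count of genes called for the average mutant was 198. It was 454 with DESeq2, 346 with limma-voom, 429 with no filter on low counts, 663 without HxD1, KO1 and KO3 and 50 with KO out of the average, and it ranged from 47 to 398 when single libraries were left out. The share called higher was 48.0%, against 58.6% with DESeq2, 36.1% with limma-voom and 38.9% with DESeq2 size factors in edgeR. With those size factors, a minimum of 5 CPM, the 2-group fit, or HxD or V out of the average, the count stayed within 1.5 times, and no gene of the 198 changed sign in any fit. Of 44 named genes called, 13 stayed called in all 12 fits without a library. Libraries with the same replicate number did not deviate together (median correlation -3.05e-05, with 1 of 18 pairs over 0.1), so the numbers do not pair them; with the replicate block 250 genes were called for the average and 2, Galnt11 and Dhrs7, among the mutants. The 0 calls among the mutants became 1 with DESeq2, 1 with DESeq2 size factors, 15 with no filter, 32 without HxD1, KO1 and KO3 and 0 to 4 when single libraries were left out. The cause of these shifts was not tested.

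Among named genes, signs turned only in those not called by edgeR with all 12 libraries. Over the fits without a single library the log2 fold change ranged from -0.104 to 0.439 for Tet1, -0.0569 to 0.423 for Pecam1, -2.92 to 3.89 for Cdh5, -7.30 to 4.11 for Adgre1, -4.22 to 5.56 for Csf1r, -0.282 to 0.0490 for Galnt11, -0.549 to 0.239 for Dhrs7, -0.0914 to 0.567 for Peg3 and -0.0576 to 0.476 for H19. Csf1r was 0.27 with limma-voom but -8.30 with DESeq2, which called it (adjusted p = 0.00195). In the 2-group fit, Dhrs7 was 0.77, Galnt11 0.0271 and Cdh5 0.43. With KO out of the average Dhrs7 was 1.31 and Galnt11 0.18, with V out Cdh5 was 0.997 and Galnt11 0.0321, and with HxD out Tet1 was -0.0291. Genes of few counts could not be resolved where libraries listed many at 0.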

Other observations

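Genes of mitochondrial transport, chosen after their values were seen and not as a list, stood among those called. Slc25a4 and Slc25a5 encode the ADP/ATP carriers of most tissues, and Slc25a31 encodes the germ cell form. Slc25a4 was at 442.8 to 683.6 CPM in the mutants and at 290.2, 291.6 and 374.5 CPM in WT (log2 fold change 0.77 ± 0.15, edgeR adjusted p = 0.00902). Slc25a5 was at 198.8 to 347.4 CPM in the mutants and at 123.4, 178.6 and 176.1 CPM in WT (log2 fold change 0.76 ± 0.17, edgeR adjusted p = 0.0181). Slc25a31 was at 11.8 to 151.6 CPM in the mutants and at 306.9, 151.8 and 126.2 CPM in WT (log2 fold change -1.60 ± 0.31, edgeR adjusted p = 0.00902), with overlapping groups. Slc25a4 and Slc25a5 lost their calls without WT1 or WT2, and Slc25a31 without WT1 (adjusted p up to 0.173 among these), with DESeq2 (adjusted p = 0.0984) and with KO out of the average, where Slc25a5 was lost too (adjusted p = 0.113 and 0.0793).

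Slc25a13, the mitochondrial aspartate and glutamate carrier, and Vdac1, an outer membrane channel, were higher in the mutants and kept their calls without any single library. Slc25a13 was at 103.7 to 186.4 CPM in the mutants and at 51.3, 76.7 and 71.9 CPM in WT (log2 fold change 1.08 ± 0.18, edgeR adjusted p = 0.00148). Vdac1 was at 103.2 to 135.5 CPM in the mutants and at 38.8, 66.2 and 70.8 CPM in WT (log2 fold change 1.02 ± 0.18, edgeR adjusted p = 0.00280).

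The 4 genes called higher with the largest fitted changes, all of low level and named after their values were seen, were listed at 0 in all 3 WT libraries. Was, a cytoskeletal regulator of blood cells, was at 1.81 to 8.50 CPM in the mutants, and Ttc21a at 1.78 to 4.83 CPM, with a count in every mutant library. Gmnc, a regulator of multiciliated cells, was at 0 to 17.9 CPM and Dcdc2a at 0 to 6.91 CPM. Their edgeR adjusted p values were 0.0135, 0.0301, 0.0212 and 0.0376. Being at 0 in WT, they passed the filter on low counts only through the mutant libraries, where they are high. These p values are therefore not separate support for a difference. All lost their calls without WT1 or WT2 (adjusted p up to 0.181), Ttc21a and Dcdc2a also without WT3 or V1, Ttc21a without HxD2 and Gmnc without KO1 (adjusted p from 0.0506 to 0.0641). Ttc21a, Gmnc and Dcdc2a were also lost with KO out of the average, and Gmnc and Dcdc2a with limma-voom (adjusted p up to 0.0713 among these).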
